A study of Homo sapiens with 4 samples.

Results

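The 10 genes MMP1, MMP2, MMP3, MMP9, MMP14, TIMP1, TIMP2, TIMP3, LOX and LOXL2 encode matrix metalloproteinases, their tissue inhibitors and lysyl oxidases and were taken as a named family. They were read by 25 probe sets whose single gene symbol in the platform annotation is one of them, out of 54613 probe sets and 19775 named genes. The cells were LN-229, an established human glioblastoma line: 2 control arrays came from untreated cultures, and 2 induced arrays from cultures given doxycycline (spelled Doxocyclin in the labels) for 48 h to express WIF1, a secreted protein that captures WNT ligands. Doxycycline was present in the induced cultures alone, so an effect of the drug and one of WIF1 cannot be told apart, and the labels do not state whether the inducible line is 1 clone or which promoter drives WIF1. The labels call the replicates biological, without saying how separate the cultures were.

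Matrix metalloproteinases are zinc-dependent enzymes, made as inactive precursors, that cut collagens, gelatin, laminins and other proteins outside the cell. The TIMPs bind their active site and block it, and TIMP2 also takes part in the activation of pro-MMP2 by the membrane enzyme MMP14. LOX and LOXL2 are copper enzymes that oxidise lysines of collagen and elastin so that the fibres become cross-linked. In glioma, gelatinases and MMP14 are known for their part in the invasion of brain tissue.

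No member passed the test. TIMP3 gave the most uniform pattern, with all 4 of its probe sets at lower means in induced arrays by 0.17 to 0.37 log2 units. The bright probe set of LOXL2 gave -0.22, and the brightest of LOX, itself dim, gave 0.34. MMP1, MMP3 and MMP9 differed by less than 1 standard error, and MMP2 and MMP14 had probe sets that pointed in opposite directions. The mean differences of the TIMP1 and TIMP2 probe sets were at most 0.09 in size. Values are log2 signals made by the authors with RMA, each difference is induced minus control with n = 2 arrays per group, and the standard error (SE), the 95% interval and p come from limma fitted to all probe sets.

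With Benjamini-Hochberg adjustment limma called 0 of the 25 member probe sets at an adjusted p under 0.05, as it called 0% of all 54613, and the smallest adjusted p of a member was 0.413. At an unadjusted p under 0.05 stood 7 member probe sets, 2 with a higher and 5 with a lower signal in induced arrays, against 4.75% higher and 5.27% lower of all probe sets. Of these 7, 3 belong to TIMP3, 2 to MMP2, 1 to LOX and 1 to LOXL2. Probe sets of a gene read the same RNA and are not independent. The count of 2 higher was 1 without the first control array, 0 without the second control array and 1 without the second induced array, and the count of 5 lower was 3 without the second induced array. The groups did not overlap in 14 of the 25 probe sets, with the induced pair above the controls in 4 and below in 10, where 41.4% of all probe sets did so (17.9% above and 23.5% below). The median difference was -0.05 over the member probe sets and -0.01 over all probe sets. Taking for each gene its probe set of highest mean, 1 of the 10 genes had a higher signal (LOX) and 2 a lower one (TIMP3 and LOXL2) with unadjusted p under 0.05, against 6.48% and 4.73% of all genes. Of these, LOX missed 0.05 without the second control array, and without the first control or the second induced array only 1 gene had a lower signal at that threshold. In bulk RNA such as this, fewer cells with a transcript and less of it per cell cannot be told apart.

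The median of all probe sets over the 4 arrays was 6.16, and 16 of the 25 member probe sets, from 7 of the 10 genes, reached this level. MMP1, MMP3 and LOX had none. The array medians ran from 6.15 to 6.19, and the arrays correlated at 0.996 to 0.998. Between a control and an induced array the correlation ran from 0.9959 to 0.9980. It was 0.9976 within the controls and 0.9972 within the induced pair, so the arrays did not correlate best within their group. The 1 probe set of WIF1 was near the bottom of the scale in every array, at 2.98 and 2.90 in control arrays and at 2.93 and 3.03 after induction (difference 0.04, SE 0.10), so it gave no check of the labels. Of the glioma markers, vimentin (VIM), nestin (NES) and S100B were bright and GFAP lay below the median, with 8 of 12 listed markers at or above it. In the lists for other cell types 3 of 6 measured leukocyte markers, 3 of 7 endothelial, 5 of 8 fibroblast and 5 of 7 epithelial ones reached the median, KRT18 at about 11.6 being the brightest, while PTPRC, CDH5 and EPCAM were below it in every array. Among the 12 glioma and astrocyte markers, 0 had a higher and 4 a lower signal with unadjusted p under 0.05, with a median of -0.05, where 6.48% and 4.73% of all genes did so. In the lists for other cell types the fibroblast marker LUM (lumican), at 0.34 (SE 0.055), and the endothelial marker TEK, at 0.32 (SE 0.12) and dim, were higher at that threshold and 0 were lower; the part of these markers in the members' values was not tested.

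**Figure D1:**
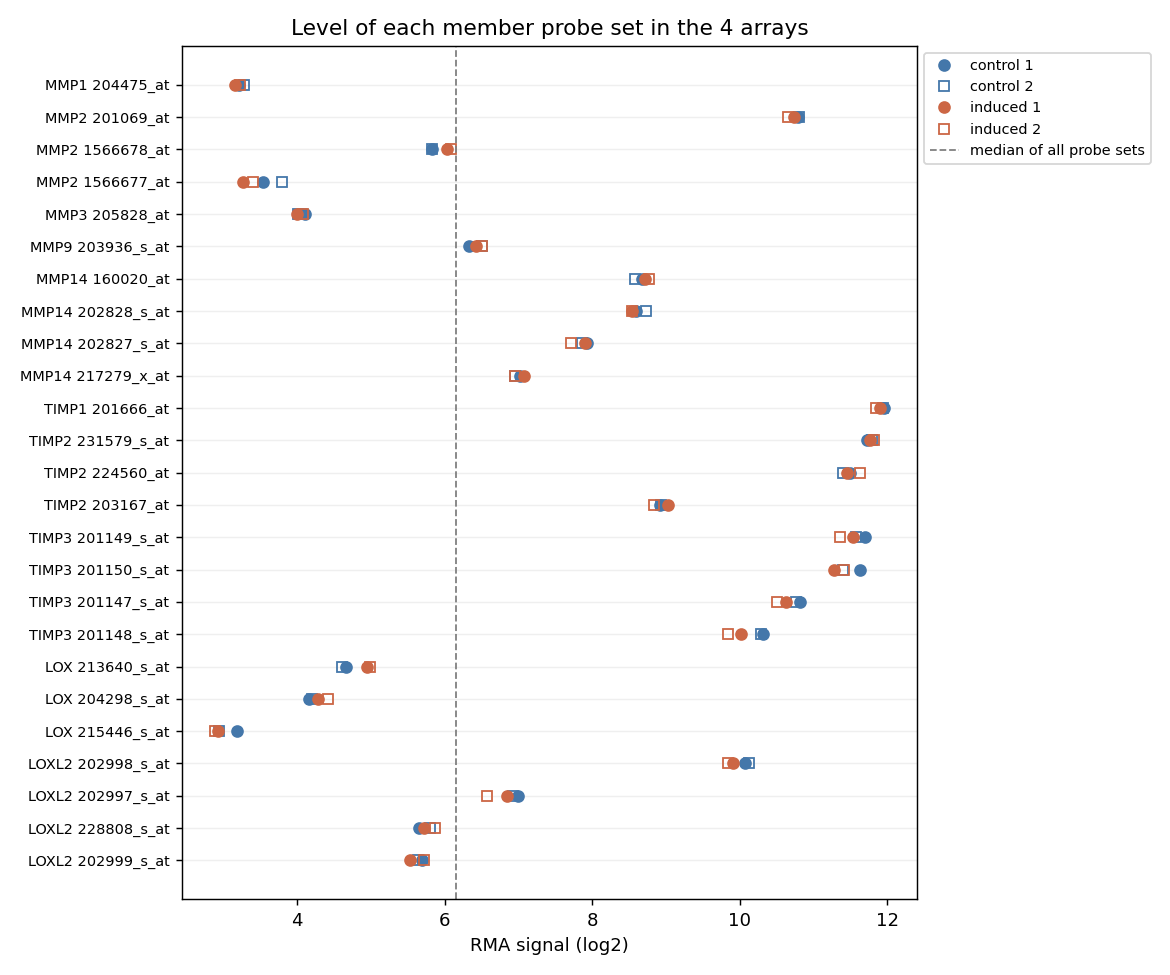
RMA signal (log2) of the 25 member probe sets, 1 row per probe set, with a point for each of the 4 arrays and a dashed line at the median of all probe sets (6.16). The TIMPs, MMP14 and the bright probe sets of MMP2 and LOXL2 lie to the right of the line, MMP1, MMP3 and all 3 probe sets of LOX to its left, and the points of a row lie close together.

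MMP1, interstitial collagenase, and MMP3, stromelysin 1, are secreted enzymes that many cells make on exposure to growth factors and inflammatory cytokines. MMP1 was at 3.21 and 3.27 in control arrays and at 3.16 and 3.23 in induced arrays. The groups overlapped, and the difference was -0.05 (SE 0.099, 95% interval -0.29 to 0.19). MMP3 was at 4.11 and 4.02 in control arrays and at 3.99 and 4.08 in induced arrays, also overlapping, with a difference of -0.02 (SE 0.10, 95% interval -0.28 to 0.23). These intervals leave room for a difference of either sign about as large as those of TIMP3, and at signals this low array values compress differences.

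These genes lie in a row of 9 neighbouring metalloproteinase genes (MMP7, MMP20, MMP27, MMP8, MMP10, MMP1, MMP3, MMP12 and MMP13, in the order of the RefSeq gene table of GRCh38.p14). Of the 9, only MMP8 (neutrophil collagenase) reached the median level of 6.16, and 0 had an unadjusted p under 0.05 in limma. The differences ran from -0.31 for MMP13, a collagenase at 4.45 and 4.69 in control arrays and 4.38 and 4.14 after induction (SE 0.14), to 0.10 for MMP7 (matrilysin). By sign 4 were higher and 5 lower, so the row showed no common direction.

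MMP2 and MMP9 are the gelatinases. The bright probe set of MMP2 (201069_at) was at 10.79 and 10.80 in control arrays and at 10.74 and 10.66 in induced arrays. The induced arrays were lower without overlap, but the difference was small, at -0.10 (SE 0.042, 95% interval -0.20 to 0.0028, unadjusted p = 0.0548). Of the other probe sets, 1566678_at read 5.83 in each control array and 6.04 and 6.09 in induced arrays, a difference of 0.23 (SE 0.085, unadjusted p = 0.0343). The dimmest, 1566677_at, was at 3.53 and 3.80 in control arrays and at 3.27 and 3.40 in induced arrays, a difference of -0.33 (SE 0.13, unadjusted p = 0.0407). The 3 probe sets of MMP2 thus separated the groups in different directions, and the dim pair, both below the median level, gave the larger values. For MMP9 the controls were at 6.33 and 6.50 and the induced arrays at 6.43 and 6.51, which overlap, with a difference of 0.05 (SE 0.093, 95% interval -0.17 to 0.28).

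MMP14 is a membrane-anchored metalloproteinase that activates pro-MMP2 at the cell surface, and its 4 probe sets were all above the median level. On 160020_at it was at 8.68 and 8.58 in control arrays and at 8.72 and 8.77 in induced arrays, a difference of 0.12 (SE 0.059). On 202828_s_at it was at 8.60 and 8.73 in control arrays and at 8.53 in both induced arrays, a difference of -0.13 (SE 0.063). These probe sets separated the groups without overlap but in opposite directions, at unadjusted p = 0.0928 and 0.0848. The other probe sets overlapped between groups, with -0.08 (SE 0.080) for 202827_s_at and 0.03 (SE 0.078) for 217279_x_at. Averaged over its probe sets MMP14 gave -0.02 (SE 0.050), smaller than its error.

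**Figure D2:**
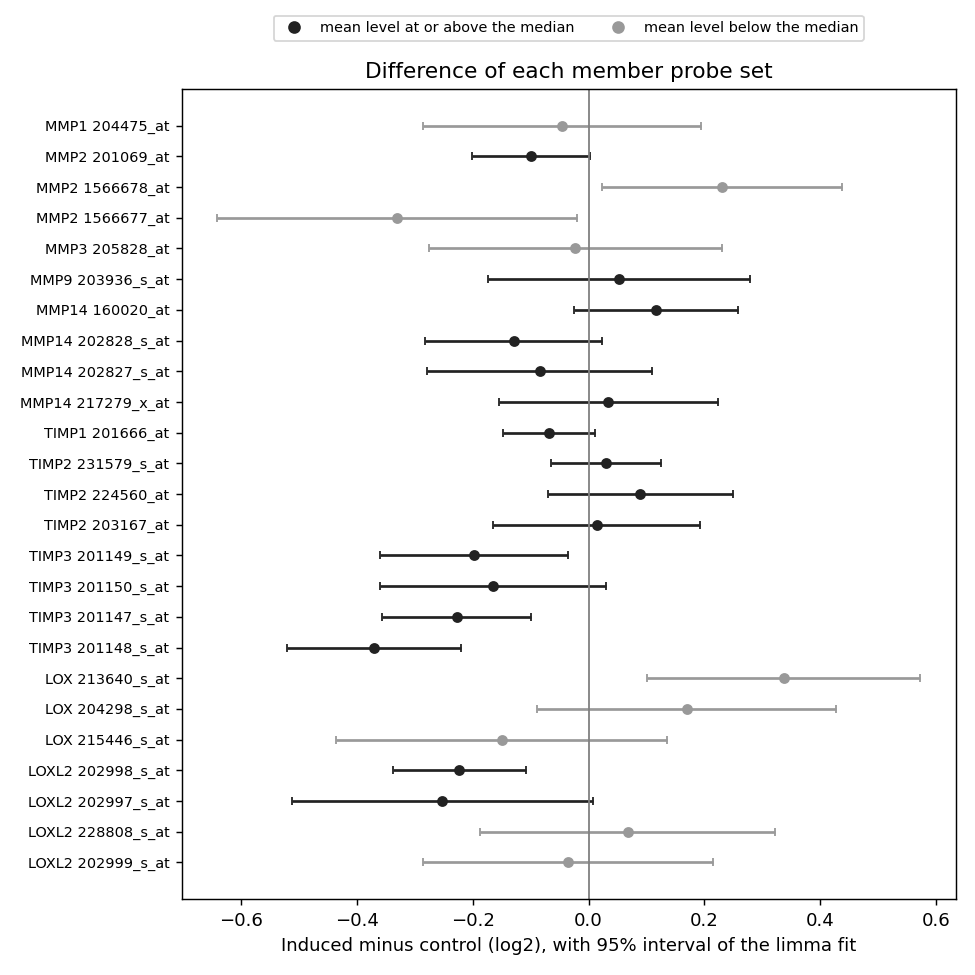
Induced minus control difference (log2) of each of the 25 member probe sets with the 95% interval of the limma fit, black where the mean level reaches 6.16, the median over all probe sets, and grey where it is lower. All 4 points of TIMP3 lie left of 0, those of MMP2 and MMP14 fall on both sides, and the intervals of the dim probe sets in grey are wide.

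TIMP3 is the inhibitor that is held in the extracellular matrix, and it also blocks several ADAM proteases, among them ADAM17. Its probe set 201148_s_at was at 10.31 and 10.29 in control arrays and at 10.01 and 9.84 in induced arrays. Both induced arrays lay below both controls by at least 0.28, more than the gap within either group, and the difference was -0.37 (SE 0.062, 95% interval -0.52 to -0.22), a signal 22.7% lower. Its unadjusted p of 0.000843 was the smallest of the members, and the adjusted p was 0.413. On 201147_s_at TIMP3 was at 10.82 and 10.77 in control arrays and at 10.63 and 10.50 in induced arrays, a difference of -0.23 (SE 0.053, unadjusted p = 0.00460). On the brightest, 201149_s_at, it was at 11.70 and 11.58 in control arrays and at 11.53 and 11.36 in induced arrays, a difference of -0.20 (SE 0.067, unadjusted p = 0.0240). These 3 probe sets had the same order of arrays, with the second induced array lowest. The fourth, 201150_s_at, was at 11.63 and 11.40 in control arrays and at 11.28 and 11.41 in induced arrays. There the groups overlapped, and its difference of -0.17 (SE 0.081, unadjusted p = 0.0844) was -0.05 without the first control array and -0.28 without the second.

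Averaged over its 4 probe sets TIMP3 gave -0.24 (SE 0.049, unadjusted p = 0.00189, adjusted p = 0.300). Leaving out an array could not turn the sign of the TIMP3 probe sets whose groups did not overlap. Only 201150_s_at, whose groups overlapped, could have turned, and its difference stayed negative, from -0.28 to -0.05. For 201148_s_at the difference ran from -0.46 to -0.29 in these fits. Without the second induced array 201149_s_at gave -0.11. In the RefSeq gene table TIMP3 lies within SYN3, a gene for a synapsin of nerve terminals. The 1 probe set of SYN3, just below the median level, was at 6.27 and 6.29 in control arrays and at 6.05 and 5.94 in induced arrays, a difference of -0.29 (SE 0.087, unadjusted p = 0.0146, adjusted p = 0.472), and whether it reads any RNA of TIMP3 was not tested. The signal of 3' over 5' control probe sets moved with the groups too. For ACTB this log2 difference was -0.036 and 0.021 in control arrays and 0.033 and 0.11 in induced arrays, for GAPDH -0.067 and -0.069 against -0.043 and -0.047, and its part in the TIMP3 values was not tested.

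TIMP1 and TIMP2, which unlike TIMP3 are soluble, did not show a difference of that size. TIMP1 was at 11.95 and 11.94 in control arrays and at 11.90 and 11.85 in induced arrays, without overlap, with a difference of -0.07 (SE 0.033, 95% interval -0.15 to 0.012). TIMP2 had positive differences on all 3 probe sets and overlapping groups on each. The brightest, 231579_s_at, was at 11.73 and 11.79 in control arrays and at 11.76 and 11.82 in induced arrays, a difference of 0.03 (SE 0.039, 95% interval -0.06 to 0.12). The others gave 0.09 (SE 0.066) for 224560_at and 0.01 (SE 0.074) for 203167_at. The 95% interval of TIMP3 201148_s_at lies wholly below those of TIMP1 and of all 3 TIMP2 probe sets. Those of the other 3 TIMP3 probe sets overlap the interval of TIMP1, and a difference between genes was not tested. TIMP1 lies within SYN1, whose dim brightest probe set gave 0.21 (SE 0.092). TIMP4, the remaining member of the inhibitor family, was below the median level and gave 0.14 (SE 0.14).

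**Figure D3:**
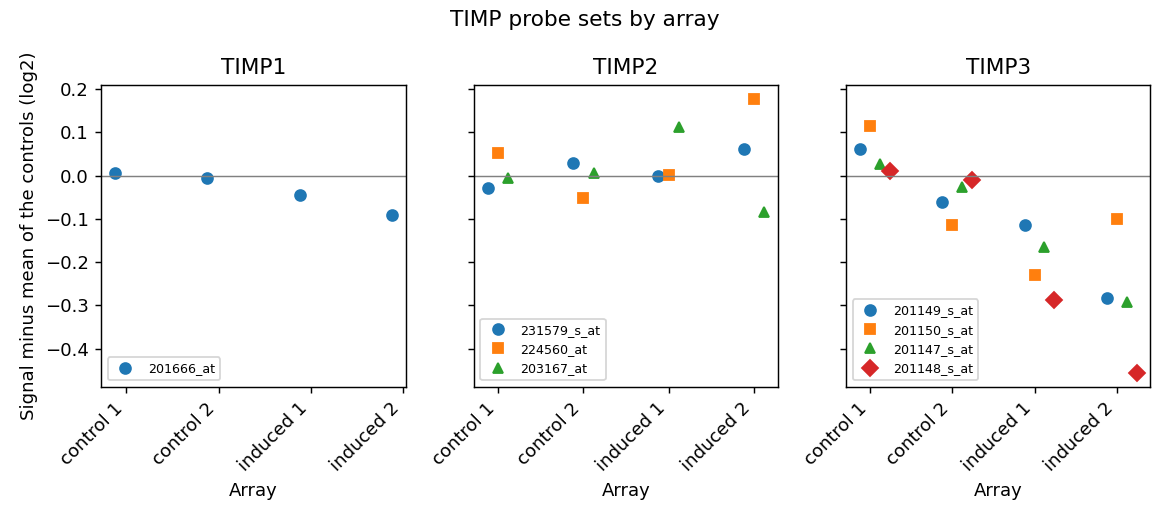
Signal of each TIMP probe set in each array minus the mean of its controls (log2), with 1 panel per gene, 1 symbol per probe set and the arrays along the horizontal axis. For TIMP3 the induced arrays lie below the line at 0 on all 4 probe sets, down to the second induced array on 201148_s_at, while the values of TIMP2 scatter on both sides and TIMP1 stays near the line.

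The promoters of TIMP3 and TIMP1 are shown because TIMP3 gave the lowest difference of the members and TIMP1 one near 0, and that of LOX because it gave the highest. Windows were taken from RefSeq sequences of GRCh38.p14 for 4 of the 10 genes. The chromosome that carries LOXL2 was left out of this search, so no window of LOXL2 was looked at. Each line holds the 250 bases before the annotated start, read in the direction of the gene: chr22:32801455-32801704 on the plus strand for TIMP3, chrX:47582186-47582435 on the plus strand for TIMP1, and chr5:122078260-122078509 on the minus strand for LOX. LOX had 3 windows, for different annotated starts, and the one farthest upstream is printed. Capitals mark the motifs found on either strand, GGGCGG (the GC box of Sp1-type factors) and CCAAT.
TIMP3: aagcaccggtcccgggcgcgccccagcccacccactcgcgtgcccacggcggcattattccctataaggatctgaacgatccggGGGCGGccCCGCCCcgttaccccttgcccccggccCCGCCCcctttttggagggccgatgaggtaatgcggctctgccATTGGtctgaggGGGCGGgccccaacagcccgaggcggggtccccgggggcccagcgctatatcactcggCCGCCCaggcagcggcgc
TIMP1: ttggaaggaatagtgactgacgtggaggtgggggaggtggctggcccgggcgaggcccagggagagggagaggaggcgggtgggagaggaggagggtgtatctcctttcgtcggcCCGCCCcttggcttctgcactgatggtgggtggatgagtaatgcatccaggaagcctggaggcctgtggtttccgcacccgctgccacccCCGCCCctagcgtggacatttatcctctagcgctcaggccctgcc
LOX: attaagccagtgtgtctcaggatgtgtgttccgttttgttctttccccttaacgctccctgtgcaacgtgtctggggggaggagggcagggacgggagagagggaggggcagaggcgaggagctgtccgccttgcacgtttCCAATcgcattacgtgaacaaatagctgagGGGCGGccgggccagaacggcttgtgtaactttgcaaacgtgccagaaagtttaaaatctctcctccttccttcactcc

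The TIMP3 window held 5 GC boxes, at 166, 158, 131, 76 and 18 bases before the start, and 1 CCAAT box. The TIMP1 window held 2 GC boxes and no CCAAT box, the printed LOX window 1 of each, and the MMP14 window 1 of each. The other LOX windows, which overlap each other, held 0 of both. Of the 35116 promoter windows of this length 42.6% had a GC box and 32.0% a CCAAT box. The AP-1 motif TGANTCA, in 6.57% of all windows, and the TATA box TATAAA, in 10.7%, were in none of the 6 windows of these 4 genes. Guanine and cytosine made up 72.4% of the TIMP3 window, 64.8% of that of TIMP1 and 55.2% of the printed LOX window (61.2% and 66.4% of the others), against a median of 58.0% over all windows. These matches describe letters and were not tested as binding sites.

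LOX, the founding lysyl oxidase, was read by 3 dim probe sets. The brightest, 213640_s_at, was at 4.66 and 4.61 in control arrays and at 4.95 and 4.99 in induced arrays. The groups were apart by 0.30, wider than the gap within either, and the difference was 0.34 (SE 0.097, 95% interval 0.10 to 0.57, unadjusted p = 0.0126, adjusted p = 0.472), which is 1.26-fold. On 204298_s_at the controls were at 4.16 and 4.20 and the induced arrays at 4.28 and 4.42, a difference of 0.17 (SE 0.11). On 215446_s_at, near the floor, the controls were at 3.19 and 2.94 and the induced arrays at 2.93 and 2.89, a difference of -0.15 (SE 0.12). All 3 separated the groups, 2 upwards and 1 downwards. Averaged over them LOX gave 0.12 (SE 0.088), a value that did not stand out from its error.

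LOXL2, a lysyl oxidase known for cross-linking collagen IV of basement membranes, was bright on 202998_s_at, at 10.07 and 10.13 in control arrays and at 9.91 and 9.84 in induced arrays. The induced arrays were below both controls, with a difference of -0.22 (SE 0.048, 95% interval -0.34 to -0.11, unadjusted p = 0.00298, adjusted p = 0.472), a signal 14.3% lower. On 202997_s_at the controls were at 6.99 and 6.93 and the induced arrays at 6.85 and 6.57, a difference of -0.25 (SE 0.11) that was -0.11 without the second induced array and -0.39 without the first. The remaining probe sets were below the median level and overlapped between groups, with 0.07 (SE 0.11) for 228808_s_at and -0.04 (SE 0.10) for 202999_s_at. The bright probe set and the next brightest thus pointed down, and the dim pair showed no difference beyond its error. Averaged over its probe sets LOXL2 gave -0.11 (SE 0.056, unadjusted p = 0.0874 and adjusted p = 0.536 in limma).

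**Figure D4:**
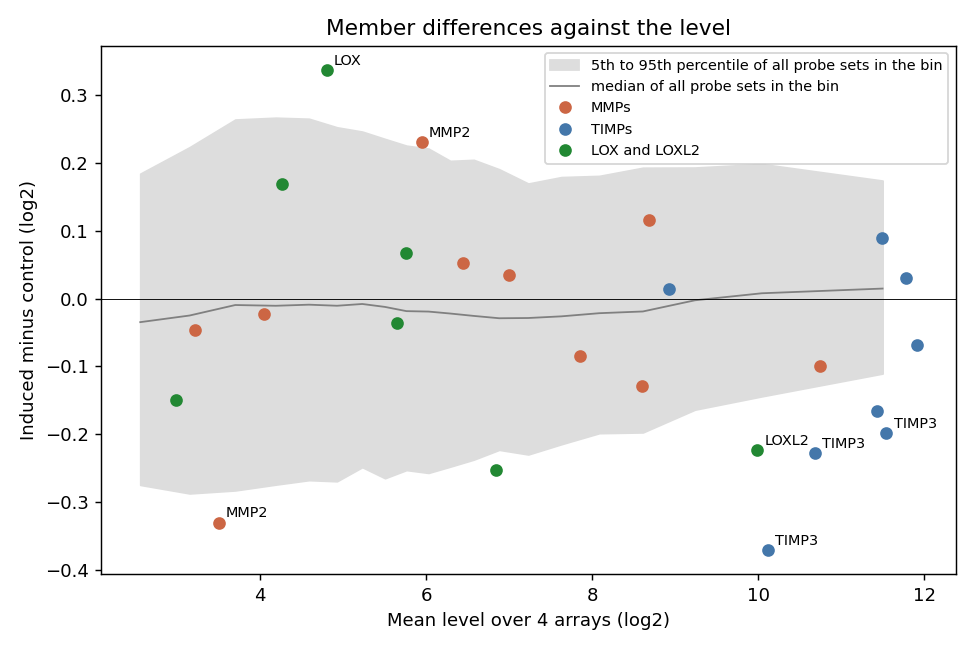
Induced minus control difference (log2) against the mean level over 4 arrays (log2) of the member probe sets, over a grey band from the 5th to the 95th percentile of all probe sets in 20 bins of level; names mark the members with an unadjusted p under 0.05. All 4 probe sets of TIMP3, 2 of LOXL2 and 1 of MMP2 lie below the band, 1 each of LOX and MMP2 above it, and the remaining 16 inside.

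Of 30 measured genes for other metalloproteinases of the MMP, ADAM and ADAMTS families, limma called 0 at an adjusted p under 0.05, and with unadjusted p under 0.05 stood 3 higher and 2 lower genes, where 6.48% and 4.73% of all genes did. Their median was -0.04, and that of all genes 0.00. The 3 higher ones were the membrane sheddases ADAM15 at 0.31 (SE 0.081), ADAM9 at 0.28 (SE 0.073) and ADAM17 at 0.17 (SE 0.041). ADAM17, which releases TNF and EGF receptor ligands from the cell surface, was at 10.08 and 10.04 in control arrays and at 10.23 and 10.24 in induced arrays, without overlap. ADAM19 was at 7.45 and 7.49 in control arrays and at 7.22 and 7.14 in induced arrays, a difference of -0.29 (SE 0.069). Other probe sets of these 4 genes disagreed in sign, down to -0.14 for ADAM15, -0.07 for ADAM17 and -0.02 for ADAM9, and up to 0.30 for ADAM19. Without the second array of either group 1 gene was higher and 1 lower, and without the first induced array 1 was lower.

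Among 16 measured inhibitors and regulators of these enzymes, 0 passed the adjusted threshold, and with unadjusted p under 0.05 stood 1 higher and 2 lower genes, where 6.48% and 4.73% of all genes did. RECK, a membrane-anchored inhibitor of MMPs, gave 0.19 (SE 0.069), with its 5 probe sets between -0.13 and 0.19. SERPINE2 (protease nexin 1), the MMP inducer BSG and PLAT, the tissue plasminogen activator, gave -0.06, -0.12 and -0.05, with unadjusted p from 0.137 to 0.169. The 2 lower genes, named after their values were seen, were dim: A2M, the broad protease trap alpha-2-macroglobulin, at -0.37 (SE 0.10) with its other probe set at 0.04, and SPOCK3 at -0.29 (SE 0.10). Neither count was stable to leaving out an array: the higher one was 0 without the second control array or an induced one, and the lower one 0 without the first control array, 1 without the second array of either group and 3 without the first induced array.

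In the rest of the lysyl oxidase family and collagen processing, 4 of 19 measured genes had a lower and 0 a higher signal with unadjusted p under 0.05, against 4.73% lower and 6.48% higher of all genes, and 0 passed the adjusted threshold in limma. The 4 were the collagen chaperone SERPINH1 at -0.12 (SE 0.038), the procollagen C-proteinase enhancer PCOLCE at -0.13 (SE 0.045), LOXL3 at -0.10 (SE 0.040) and the lysyl hydroxylase PLOD1 at -0.15 (SE 0.059). LOXL3, another lysyl oxidase, was at 10.77 and 10.81 in control arrays and at 10.71 and 10.66 in induced arrays. These differences are small, and the list median was -0.01. The count of 4 lower was 0 without either control array and 0 without the second induced one, 0 after centring the arrays on their medians, where 2 genes were higher, and 1 with a replicate block.

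The last list holds regulators of metalloproteinase genes and was drawn up as a list of inducers. The direction in which each acts in these cells was not tested. Of 26 measured AP-1, ETS and cytokine genes, 9 had a higher and 0 a lower signal with unadjusted p under 0.05 (6.48% and 4.73% of all genes did), with a median of 0.04, and 0 passed the adjusted threshold in limma. The cytokine IL6 gave 1.01 (SE 0.088, adjusted p = 0.160), the stress factor ATF3 0.57 (SE 0.055, adjusted p = 0.167), ETS1 0.31 (SE 0.047) and the AP-1 subunit FOSL2 0.20 (SE 0.045). IL1A, a classical inducer of MMP1 and MMP3 in fibroblasts that was named after its value was seen, was at 5.28 and 5.39 in control arrays and at 6.64 and 6.49 in induced arrays, which is 1.23 higher (SE 0.099, adjusted p = 0.142). This probe set of IL1A had a mean level of 5.95, below the median, and the other one gave a difference of 0.01. The probe sets of ETS1 ran from 0.00 to 0.31, those of ATF3 from 0.15 to 0.57 and those of FOSL2 from -0.0006 to 0.39. IL6 passed after centring the arrays (adjusted p = 0.0473) and after cyclic loess (adjusted p = 0.0408), and ATF3 after cyclic loess (adjusted p = 0.0475). Without either control array, or without the second induced one, 6 genes were higher, and in the last case 1 was lower. In the same arrays MMP1 and MMP3, as given above, had mean differences of -0.05 and -0.02. Both were dim, their 95% intervals reach to either side of 0, and a link to these regulators was not tested.

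**Figure D5:**
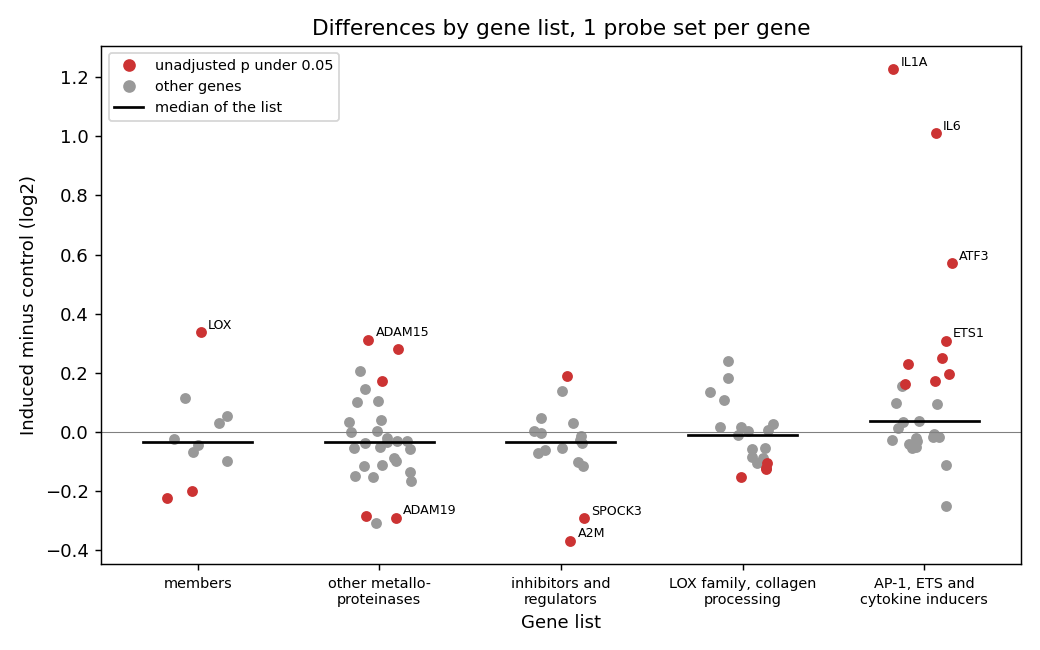
Induced minus control difference (log2) of each gene, through its probe set of highest mean, for the 10 members and for 4 lists of related genes; red points have an unadjusted p under 0.05 and black lines are the list medians. IL1A at 1.23 and IL6 at 1.01 lie far above the other points, while the medians of all 5 columns lie between -0.04 and 0.04.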

How the data were processed

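Total RNA of 4 LN-229 cultures was labelled with biotin and hybridised to 1 array each, per the labels. The deposited values are log2 signals per probe set, to which the authors applied RMA (affy in R), per the submitters' processing notes; versions are not given in the sources used here. RMA makes the distributions of single-probe signals equal between arrays, so a shift shared by most genes would be largely removed. The probe set values kept small offsets, with array medians from 6.15 to 6.19. Of 54675 rows, 62 array controls were left out. The platform annotation gave 41091 of 54613 probe sets 1 symbol, 1801 several and 11721 none, and 0 with several symbols held a member. Groups came from sample titles.

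Induced and control arrays were compared with limma 3.58.1 in R 4.3.3 (lmFit, eBayes with trend, 2-sided; 6.27 degrees of freedom, 4.27 from the prior), with Benjamini-Hochberg adjustment over 54613 probe sets and a threshold of 0.05. The number of arrays limits precision. Each p-value sets a difference against the spread between these arrays, moderated through the prior by that of the other probe sets. No exact permutation p could be below 0.333 with 2 against 2 arrays. The members, the lists and the named genes were chosen with earlier results of these data known. Named were all members, and from each other list up to 4 genes of smallest p among those as bright as the median probe set; others were chosen after their values were seen. Alternatives were a replicate block, eBayes without trend or robust, filters on dim probe sets, 2 other normalisations, averaged probe sets and leaving out each array, where the array left alone in its group is taken to vary as the other group does.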

Additional observations from a re-analysis of the deposited data

How the results depend on the processing

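In every alternative fit 0 member probe sets passed the adjusted threshold. Over all probe sets the count was 11 after cyclic loess, 5 after median-centring of the arrays and 2 with robust eBayes, and 0 in the others; for the AP-1, ETS and cytokine list it was 2 after centring and 3 after cyclic loess. Of 263 refitted member differences 252 kept their sign, and all 11 that turned were below 0.1 in size. Among the probe sets 17 of 25 never turned. Most of this was fixed in advance, so these counts do not measure stability. The replicate block, the eBayes variants and the filters leave a difference unchanged. Leaving out an array cannot turn a probe set whose groups do not overlap. Turned were MMP3 after centring (0.0013) and, on leaving out an array, MMP3 (range -0.069 to 0.023), MMP9 (-0.031 to 0.14), MMP14 202827_s_at (-0.18 to 0.0066) and 217279_x_at (-0.025 to 0.093), TIMP2 203167_at (-0.085 to 0.11) and 231579_s_at (-0.0016 to 0.062), and LOXL2 202999_s_at (-0.13 to 0.06) and 228808_s_at (-0.0095 to 0.14).

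At an unadjusted p under 0.05, cyclic loess gave 8 member probe sets and 4 member genes lower, and 1 higher gene in the lysyl oxidase list. Keeping bright probe sets alone gave 0 members and 0 member genes higher, 1 other metalloproteinase lower and 0 inhibitors lower, since fewer are tested. Averaging probe sets gave 0 member genes higher and 1 lower, and eBayes without trend 1 lower. Centring gave 2 genes higher and 0 lower in the lysyl oxidase list, and turned the split of all probe sets from 2593 higher and 2876 lower to 3477 and 1869, while the members stayed at 2 and 5. Beyond construction, the causes were not tested. On leaving out an array, member probe sets ran from 0 to 2 higher and 3 to 6 lower, and member genes from 0 to 1 and 1 to 3. The ranges were 1 to 4 higher and 1 to 2 lower for other metalloproteinases, 0 to 1 and 0 to 3 for inhibitors, 0 to 1 and 0 to 4 for the lysyl oxidase list, and 6 to 7 and 0 to 1 for inducers; over all probe sets the counts also dropped, to 1003 higher and 1135 lower without the second control array.

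Same-numbered arrays deviated from their group means with a correlation of 0.056. With 2 arrays per group this value cannot decide whether the cultures were handled in pairs. A replicate block gave 6 member probe sets lower and 2 higher and, for the lysyl oxidase list, 1 gene lower instead of 4.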
